A study of Mus musculus with 8 samples.

Results

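Mitochondrial biogenesis is directed by a small set of nuclear genes. Here 10 of them are described in mouse myotubes given a control siRNA or an siRNA against macroH2A1.1. They are the coactivators Ppargc1a (PGC-1 alpha), Ppargc1b (PGC-1 beta) and Pprc1 (PRC), the orphan receptors Esrra and Esrrg (estrogen-related receptors alpha and gamma), the DNA-binding factors Nrf1 (nuclear respiratory factor 1) and Gabpa (the DNA-binding subunit of GABP, also called NRF-2), the mitochondrial DNA packaging factor Tfam, and the fatty acid receptors Ppara and Ppard. All non-control probes that carry one of these gene names were taken, which gave 19 probes of 10 genes out of 23893 named genes with a probe on the array. The probes were taken by gene name and not by their values, but the members were chosen with earlier results of these data known.

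The cells were C2C12, a mouse myoblast line that fuses into multinucleated myotubes once serum is reduced. Each group held 4 samples called biological replicates, taken on day 4 of differentiation, and each sample was hybridised to its own 1-colour Agilent array. One group had received a control siRNA and the other an siRNA that silences macroH2A1.1, the macroH2A1 histone isoform able to bind ADP-ribose. A knockdown in a single cell line was therefore compared with its control, although a label marks the treated samples as knockout, and the title of the series names mitochondrial respiration as its subject.

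In muscle, PGC-1 coactivators bind no DNA themselves. They are recruited by receptors such as the estrogen-related receptors and PPARs and by nuclear respiratory factors, and these switch on nuclear genes of the respiratory chain, fatty acid oxidation and mitochondrial DNA copying. Tfam then carries the signal into the organelle, where it packages mitochondrial DNA and starts its transcription. Endurance exercise and AMPK activity are known to raise Ppargc1a in skeletal muscle.

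Every level below is the log2 processed signal minus the 75th percentile of its array, so a value of 0 lies at that percentile. Brightness depends on the probe, so it served only to choose which probe stands for a gene and which list genes are named, and the members are given no order of abundance. The share of the 59305 non-control spots that stood well above background was 46.9% to 49.8% per array, with 0 saturated. The 3 Macroh2a1 probes, which target the silenced gene, were at 50.8%, 37.6% and 46.6% of the control level, each lower on all 4 macroH2A1.1 siRNA arrays than on any control array. Their limma adjusted p over all probes was 0.051, 0.136 and 0.051. When the fit also held a term for the replicate number (the block), it was 0.024, 0.036 and 0.025. Whether a probe is specific for the macroH2A1.1 form was not examined here. All 12 myotube markers were well above background on all 8 arrays, as were 10 of 12 proliferating myoblast and cell cycle markers. So were 9 of 10 fibroblast and 4 of 10 macrophage markers. On no array were 7 of 10 adipocyte and 5 of 10 macrophage markers above background, among them Adipoq, Plin1 and Ptprc. The macroH2A1.1 siRNA replicate 2 array stood apart, at 60.1 on the first principal component against -27.3 to 7.95 for the others. Interferon response genes were highest on macroH2A1.1 siRNA arrays 2 and 3. There the median over 20 genes, each centred on its mean over all arrays, was 2.40 and 2.06. It was -0.97 to -0.74 on control arrays and 0.10 and -0.59 on macroH2A1.1 siRNA arrays 1 and 4.

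Upstream stretches of 3 members follow because they hold letters of motifs by which regulators of this network are known to bind one another's genes. Each is the 250 bases before a RefSeq transcript start (GRCm38.p6), with motif matches in capitals. Ppargc1a and Esrra are shown because both were higher in all 4 replicate pairs, and Tfam because it links this network to mitochondrial DNA.

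Ppargc1a, chr5:51567726-51567975, minus strand: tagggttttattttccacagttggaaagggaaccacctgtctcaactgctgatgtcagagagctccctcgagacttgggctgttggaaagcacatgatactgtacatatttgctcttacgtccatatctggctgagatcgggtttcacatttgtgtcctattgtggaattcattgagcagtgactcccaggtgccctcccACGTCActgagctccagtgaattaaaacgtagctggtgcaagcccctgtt
Esrra, chr19:6921809-6922058, minus strand: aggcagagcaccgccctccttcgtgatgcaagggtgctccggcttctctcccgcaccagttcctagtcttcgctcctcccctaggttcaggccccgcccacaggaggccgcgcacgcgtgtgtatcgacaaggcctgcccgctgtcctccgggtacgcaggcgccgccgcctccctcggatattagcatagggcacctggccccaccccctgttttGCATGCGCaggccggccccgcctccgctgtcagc
Tfam, chr10:71238045-71238294, minus strand: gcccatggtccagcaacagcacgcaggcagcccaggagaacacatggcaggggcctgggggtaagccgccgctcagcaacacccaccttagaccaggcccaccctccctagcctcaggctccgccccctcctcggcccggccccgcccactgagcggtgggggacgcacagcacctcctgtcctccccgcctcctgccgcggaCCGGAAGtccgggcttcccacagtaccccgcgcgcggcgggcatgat

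The match in Ppargc1a is ACGTCA, the opposite-strand form of the cyclic AMP response half-site TGACGT, and its first letter lies 50 bases before the start. That half-site occurs on either strand in 6.47% of 32851 windows of the same length and in 1 of the 13 windows that belong to the members. Esrra holds the NRF-1 core GCATGCGC 34 bases before the start. This core occurs in 2.26% of all windows and in 2 member windows, those of Esrra and Ppara, where it matches on both strands at overlapping positions. Tfam holds CCGGAAG, the core bound by ETS factors such as GABP, 47 bases before the start. It occurs in 6.91% of all windows and in 2 member windows, of Tfam and Gabpa. The estrogen-related receptor element TCAAGGTCA (0.387% of windows) and the PPAR direct repeat, a tandem of AGGTCA with 1 base between (0.0335%), matched no member window, which says only that these letters are not in these windows. RefSeq windows were matched for 9 of the 10 members, Ppargc1b being without one here.

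Ppargc1a, the coactivator that responds to exercise and cold, was measured by a probe on chromosome 5 (mm9, 51848928 to 51848987, minus strand, base 2964 of its transcript). Its levels were -0.94, -1.86, -2.14 and -1.54 on control arrays 1 to 4, and -0.67, -0.81, -1.19 and -1.41 on macroH2A1.1 siRNA arrays 1 to 4. The highest control array lay above the 2 lowest macroH2A1.1 siRNA arrays, so the groups overlapped, yet each macroH2A1.1 siRNA array was above the control array of its number. The mean was -1.62 ± 0.52 (SD, n = 4) in control and -1.02 ± 0.34 (SD, n = 4) in macroH2A1.1 siRNA myotubes, a difference of 0.60 on the log2 scale with a standard error of 0.27. It was 0.37 with normexp background correction and 0.34 with the authors' series values. The adjusted p from limma over all genes was 0.425, and 0.100 with the block (standard error 0.18), so Ppargc1a passed the threshold of 0.05 in neither fit. The differences within pairs 1 to 4 were 0.27, 1.06, 0.95 and 0.13. Pairs 2 and 3 carried most of the difference. Interferon genes were high on the macroH2A1.1 siRNA arrays of the same numbers, and their part in the result was not tested. Without macroH2A1.1 siRNA replicate 2 alone the difference was 0.53, and without pair 2 it was 0.45. A further Ppargc1a probe, at base 4966, was well above background on no array.

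Ppargc1b, the close relative of PGC-1 alpha that supports basal mitochondrial gene expression, was the member that passed the threshold with the block and not without it. Its probe lies on chromosome 18 (mm9, 61458222 to 61458281, minus strand, base 3164). Its levels were -1.89, -2.26, -1.89 and -2.12 on control arrays 1 to 4 and -1.40, -1.92, -1.73 and -1.66 on macroH2A1.1 siRNA arrays 1 to 4. The groups overlapped through macroH2A1.1 siRNA replicate 2, which lay below control replicates 1 and 3. The difference was 0.36 (standard error 0.14, adjusted p from limma 0.338; standard error 0.07 and adjusted p 0.0496 with the block), a level 1.28-fold that of control. It was smaller with normexp background correction, at 0.21, and with the authors' series values, at 0.15. All 4 pairs were higher, by 0.49, 0.33, 0.16 and 0.46. Leaving out macroH2A1.1 siRNA replicate 2 alone gave a difference of 0.44, and leaving out pair 2 gave 0.37. The blocked call was lost when any 1 of the 4 pairs was left out, and over 11 other settings of the blocked fit its adjusted p ranged from 0.039 to 0.174, with 2 of them past the threshold.

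Pprc1, the family member known for a response to serum and growth, had levels of -0.20, -0.31, -0.46 and -0.42 on control arrays 1 to 4 and 0.02, -0.25, -0.14 and -0.43 on macroH2A1.1 siRNA arrays 1 to 4. The difference was 0.15 (standard error 0.11, adjusted p from limma 0.680, and 0.252 with the block). Pair 4 showed no gain, at -0.01, while the other pairs were higher. The probe lies on chromosome 19 (mm9, 46147311 to 46147370, plus strand).

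**Figure D1:**
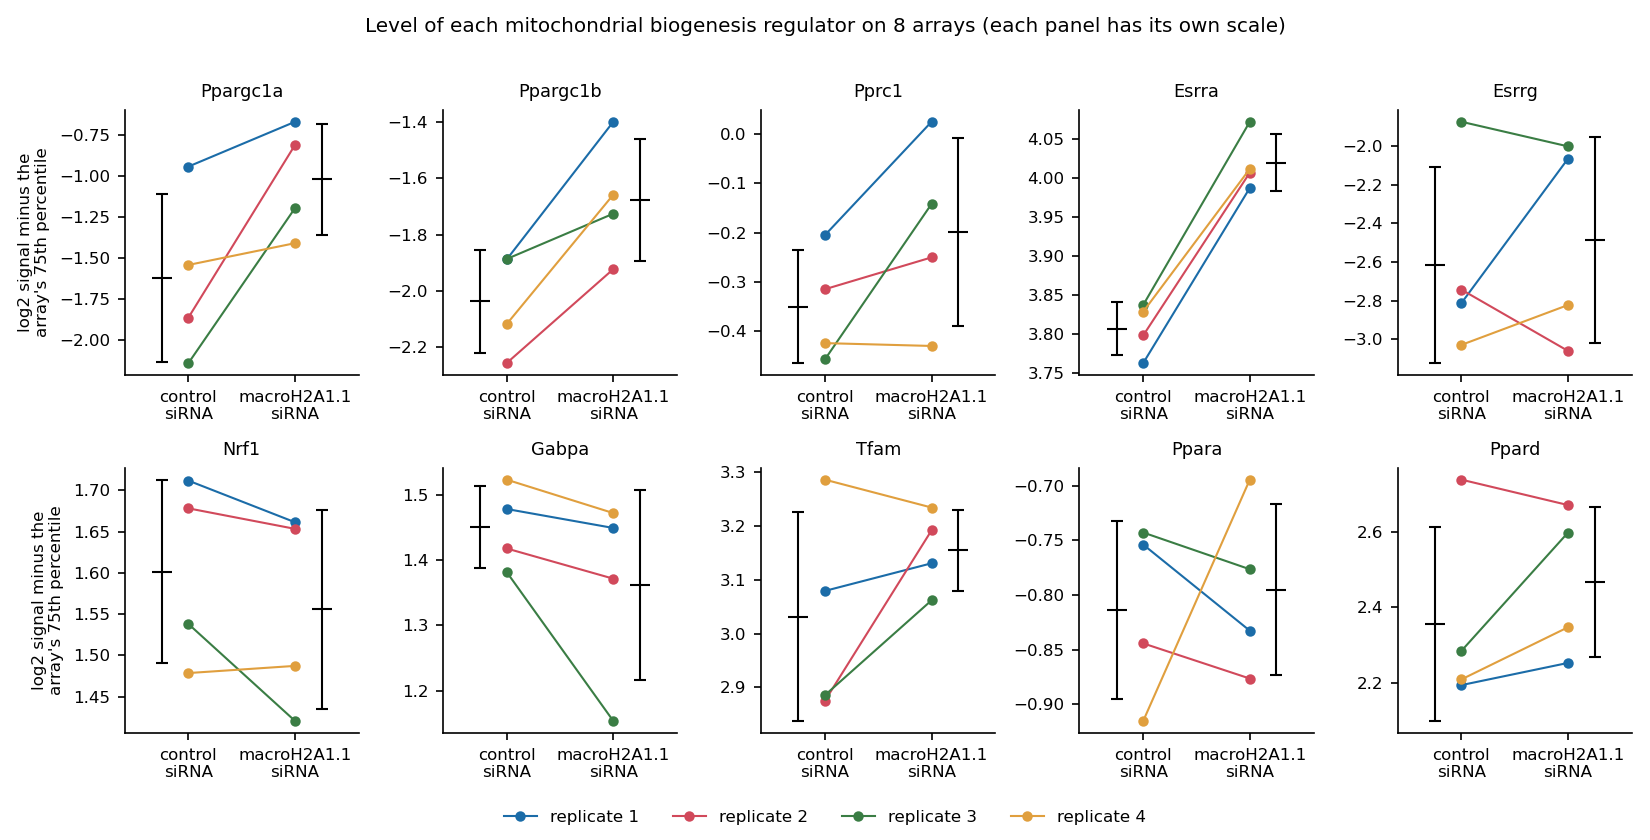
Log2 signal minus the array's 75th percentile (vertical axis) of the probe that stands for each of the 10 regulators in control siRNA and macroH2A1.1 siRNA myotubes, with 1 point per array, lines joining arrays of the same replicate number, and black bars giving the group mean ± SD (n = 4). The 4 Esrra lines run in parallel from about 3.8 to 4.0 with no overlap between groups, while the other 9 genes overlap.

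Among the receptors, Esrra, which drives respiratory chain and fatty acid oxidation genes together with PGC-1 coactivators, was the member whose groups did not overlap on this scale. With median centring its groups overlapped and those of Ppargc1b did not. The Esrra probe lies on chromosome 19 (mm9, 6985503 to 6985562, minus strand, base 2146). Control arrays 1 to 4 were at 3.76, 3.80, 3.84 and 3.83 and macroH2A1.1 siRNA arrays 1 to 4 at 3.99, 4.01, 4.07 and 4.01. The spread within a group was small, at 0.03 in control and 0.04 in macroH2A1.1 siRNA myotubes (SD, n = 4). The difference was 0.21 (standard error 0.07), or 1.16-fold, and the pairs gave 0.22, 0.21, 0.24 and 0.18. It stayed at 0.22 without macroH2A1.1 siRNA replicate 2 alone and at 0.21 without pair 2. The adjusted p from limma was 0.276, and 0.064 with the block (standard error 0.05), so the threshold was missed in both fits. Non-overlapping groups were found for 8% of all 13701 genes tested, and 4.61% had every macroH2A1.1 siRNA array above every control array.

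Esrrg, the form known from oxidative muscle and heart, was dim and varied more between replicates than between groups. The probe at base 4974 (chromosome 1, mm9, 190038384 to 190038443, plus strand) read -2.81, -2.74, -1.87 and -3.03 on control arrays 1 to 4. It read -2.06, -3.06, -2.001 and -2.82 on macroH2A1.1 siRNA arrays. Replicate 3 was the highest array of each group. The difference was 0.13 with a standard error of 0.32 (adjusted p from limma 0.930, and 0.681 with the block), and its 95% interval ran from -0.61 to 0.86. A neighbouring probe at base 4782 was above background on 7 arrays, with control levels from -4.36 to -1.95 and macroH2A1.1 siRNA levels from -3.24 to -2.07.

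Ppara and Ppard, the receptors that turn fatty acids into a transcriptional signal, were each measured by a single usable probe. Ppara (chromosome 15, mm9, 85632534 to 85632593, plus strand) was at -0.75, -0.84, -0.74 and -0.92 on control arrays and -0.83, -0.88, -0.78 and -0.69 on macroH2A1.1 siRNA arrays. The groups lay on top of one another, with a difference of 0.02 (standard error 0.08, adjusted p from limma 0.964, and 0.885 with the block) and a 95% interval from -0.17 to 0.20. The other Ppara probes were above background on 3 arrays and on no array. Ppard, the dominant PPAR of skeletal muscle, was at 2.19, 2.74, 2.28 and 2.21 on control arrays and 2.25, 2.67, 2.60 and 2.35 on macroH2A1.1 siRNA arrays (chromosome 17, mm9, 28438298 to 28438357, plus strand). Replicate 2 was the highest array in both groups. Cell cycle markers were also highest on replicate 2 of both groups. There the median over 10 genes, each centred on its mean over all arrays, was 0.92 in control and 1.18 in macroH2A1.1 siRNA myotubes. The part of the cell cycle markers in the Ppard levels was not tested. The Ppard difference was 0.11 (standard error 0.15, adjusted p from limma 0.859, and 0.399 with the block).

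**Figure D2:**
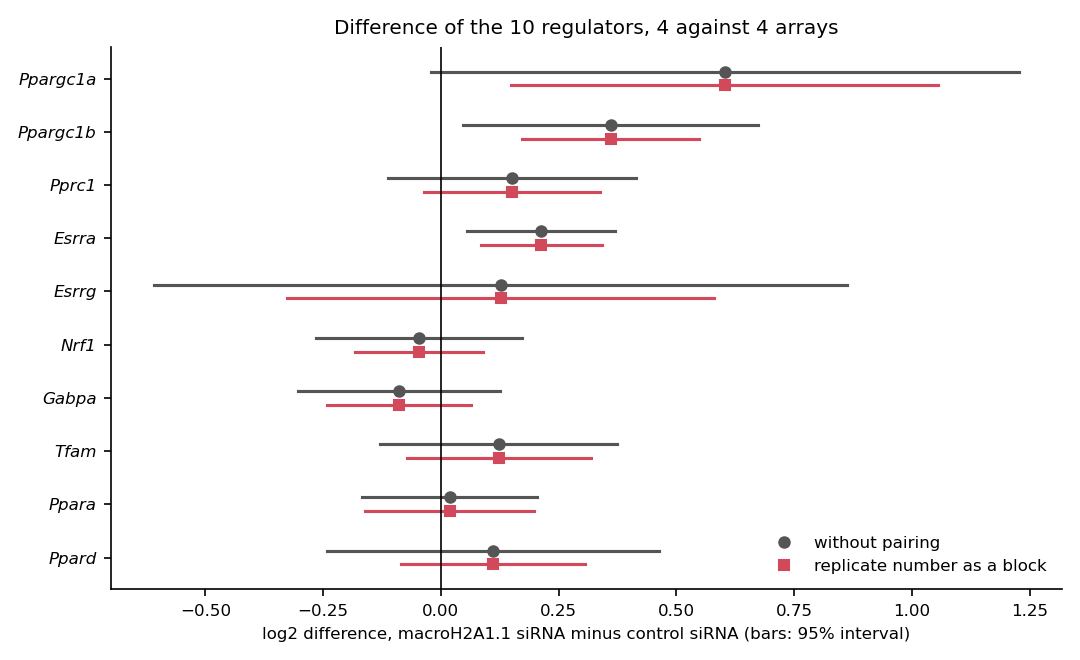
Log2 difference, macroH2A1.1 siRNA minus control siRNA (horizontal axis), of the 10 regulators, with bars giving the 95% interval from the limma fit without pairing (circles) and from the fit with the block (squares), 4 arrays per group. The unadjusted intervals of Ppargc1b and Esrra lie above 0 in both fits and that of Ppargc1a only with the block, while those of the other 7 genes span 0 in both.

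The nuclear respiratory factors act on promoters of respiratory subunits and of Tfam. Nrf1 had 3 probes on chromosome 6 (mm9, plus strand), all well above background on all 8 arrays, and they did not move alike. The brightest, at base 3163 of the transcript (30103035 to 30103094), was at 1.71, 1.68, 1.54 and 1.48 on control arrays 1 to 4 and 1.66, 1.65, 1.42 and 1.49 on macroH2A1.1 siRNA arrays 1 to 4. It differed by -0.05 (standard error 0.10, adjusted p from limma over genes 0.918, and 0.617 with the block).

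The Nrf1 probe at base 1101 (30066141 to 30066200) was lower on every macroH2A1.1 siRNA array than on any control array. Control arrays 1 to 4 were at -1.55, -1.49, -1.75 and -1.75 and macroH2A1.1 siRNA arrays at -1.94, -2.04, -2.03 and -1.98. The difference was -0.36 (standard error 0.09, adjusted p from limma over all probes 0.255, and 0.070 with the block). The probe at base 1818 (30101693 to 30101752) went the other way, from -2.55, -2.56, -2.76 and -2.72 in control to -2.48, -2.25, -2.21 and -2.43 in macroH2A1.1 siRNA myotubes. Here the difference was 0.30 (standard error 0.10, adjusted p from limma over all probes 0.360, and 0.127 with the block), again with no overlap. Its groups overlapped with median centring and with the authors' series values, which gave 0.13. Both of these probes were dim, with processed intensities between 51.3 and 94.5 for base 1101 and between 32.0 and 54.2 for base 1818. Among the 24978 probes kept, 6.85% had groups that did not overlap, 3.15% lower and 3.7% higher with macroH2A1.1 siRNA.

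The letters of the first of these probes and of the Gabpa probe that is described next are given because their genes had probes that differed in sign. They are read on the plus strand.

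Nrf1, base 1101, chr6:30066141-30066200: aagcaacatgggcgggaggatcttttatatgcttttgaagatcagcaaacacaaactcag
Gabpa, base 1653, chr16:84860691-84860750: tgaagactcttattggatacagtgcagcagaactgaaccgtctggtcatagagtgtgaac

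The unequal response of the Nrf1 probes was tested on the per-array difference between probes. The response at base 1818 exceeded that at base 1101 by 0.66, at p = 0.0286 in an exact permutation test (two-sided, 70 splits, the smallest p that 4 against 4 arrays can give), or 0.067 after Benjamini-Hochberg adjustment over 7 such comparisons among the members. All 4 pairs showed this direction, by 0.46, 0.86, 0.83 and 0.51, and the exact test within pairs gave 0.125, the smallest p it can give with 4 pairs. Base 1818 exceeded base 3163 by 0.35, and base 1101 fell short of base 3163 by a difference of -0.32, each with exact permutation p = 0.0286 and an adjusted value of 0.067. After adjustment no comparison of probes passed 0.05. The difference between bases 1818 and 1101 shrank to 0.32 with normexp background correction and to 0.31 with the authors' series values. That between bases 1101 and 3163 shrank to -0.06 with normexp (exact permutation p = 0.257) and to -0.13 with the series values (exact permutation p = 0.0857). The accessions that the array files list for the Nrf1 probes were not compared, so whether the probes read different Nrf1 transcripts was not tested.

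Gabpa had 2 usable probes on chromosome 16 (mm9, plus strand). At base 4784 (84863822 to 84863881), control arrays 1 to 4 were at 1.48, 1.42, 1.38 and 1.52 and macroH2A1.1 siRNA arrays at 1.45, 1.37, 1.15 and 1.47. The difference was -0.09 (standard error 0.09, adjusted p from limma 0.790, and 0.392 with the block). At base 1653 the levels were 0.37, -0.05, 0.37 and 0.35 in control and 0.41, 0.11, 0.45 and 0.80 in macroH2A1.1 siRNA myotubes, a difference of 0.19 (standard error 0.16). The groups overlapped at both positions. The response at base 1653 exceeded that at base 4784 by 0.27, with p = 0.229 in the exact permutation test. All 4 pairs showed this direction, by 0.06, 0.21, 0.32 and 0.51. The exact test within pairs gave 0.125, the smallest p it can give. With the mean of both probes the Gabpa difference changed sign, to 0.05.

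Tfam, which packages mitochondrial DNA and starts its transcription, had 3 usable probes on chromosome 10 (mm9, minus strand). The brightest, at base 980 (70691103 to 70691162), was at 3.08, 2.88, 2.89 and 3.29 on control arrays and 3.13, 3.19, 3.06 and 3.23 on macroH2A1.1 siRNA arrays. The difference was 0.12 (standard error 0.11, adjusted p from limma 0.732, and 0.353 with the block), with a 95% interval from -0.13 to 0.37. At base 823 the difference was -0.01 (standard error 0.11) and at base 3217 it was 0.09 (standard error 0.14). Responses differed between the Tfam probes by at most 0.13, with exact permutation p between 0.0571 and 0.771.

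**Figure D3:**
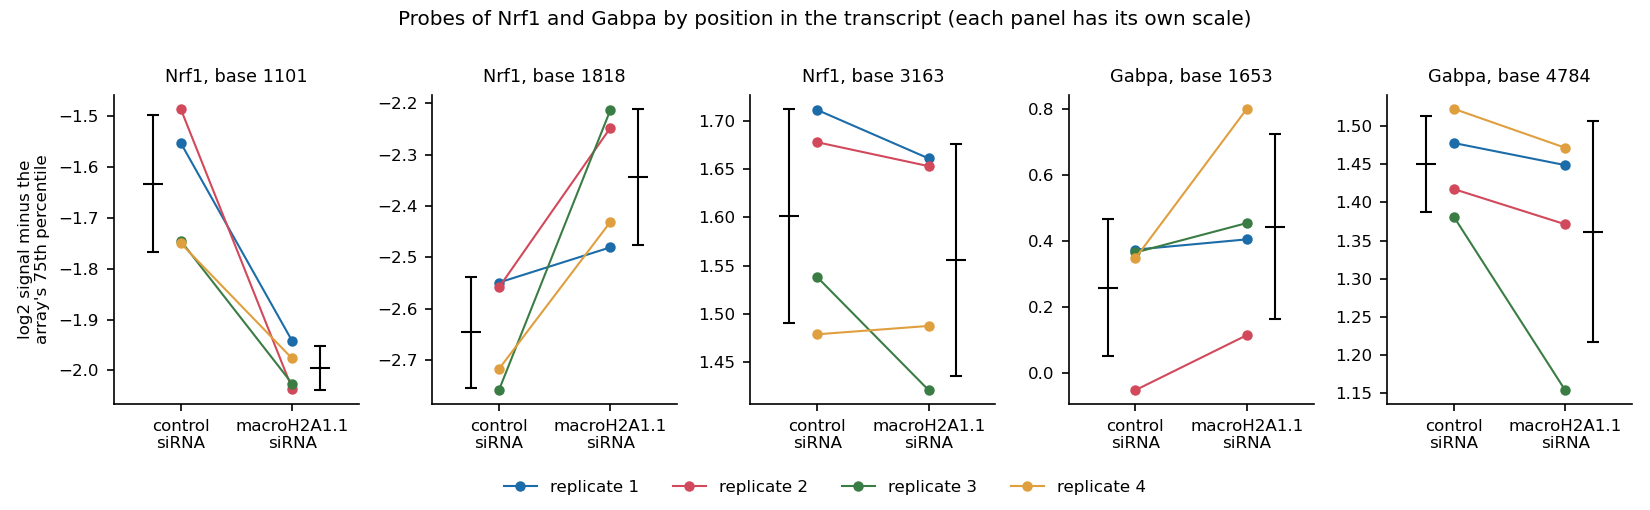
Log2 signal minus the array's 75th percentile (vertical axis) of the 3 Nrf1 and 2 Gabpa probes in control siRNA and macroH2A1.1 siRNA myotubes, with 1 point per array, lines joining arrays of the same replicate number and black bars giving the mean ± SD (n = 4). At base 1101 of Nrf1 all macroH2A1.1 siRNA arrays lie below the control arrays and at base 1818 all lie above them, while the groups overlap in the other 3 panels.

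Across the 10 regulators, 16 of 19 probes passed the filter on dim probes (all 4 arrays of a group well above background), 15 of them measured on all 8 arrays, and every gene kept at least 1 probe. No member passed the threshold in limma without pairing (2 at unadjusted p under 0.05, Ppargc1b and Esrra), where 0.0219% of all genes did (3 genes, with 12.3% at unadjusted p under 0.05). With the block 1 member passed, against 7.87% of all genes (4.23% higher and 3.64% lower), and 3 were at unadjusted p under 0.05, against 28.7% of all genes. The share of members called thus lay near that of all genes. No single member probe passed in the fits over all probes, where 0.004% of probes were called without pairing and 3.04% with the block, and 4 of the 16 had an unadjusted p under 0.05 without pairing and 5 with the block, against 10.3% and 23.9% of all probes. The difference was above 0 for 8 of 10 members, against 51.7% of all genes, with a median of 0.13 against 0.01. Ppargc1a, Ppargc1b and Esrra were higher in all 4 pairs, as were 20.7% of all genes.

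Over the 8 arrays, the genes whose level followed that of Ppargc1a most closely among 13094 were 5033421B08Rik (Pearson r 0.97), the chloride channel gene Best3 (0.97) and Fam72a (0.96). For Ppargc1b they were the proteasome subunit Psmd2 (0.98), Baiap2l1 and Ccdc86 (each 0.97), and for Esrra they were R3hdm2 (0.99), Ppil6 and E530001K10Rik (each 0.98). The closest to the brightest Nrf1 probe was the histone gene H4c17 (0.99), to Gabpa the zinc finger gene Zfp560 (0.98), to Tfam the transporter Slc35e3 (0.98), and to Pprc1 Mettl16 (0.96). Esrrg followed Tatdn1 (0.96), Ppard followed Ttc39c (0.96) and Ppara followed Haao (0.93). With 8 arrays that share pairs and groups, and a choice of the best among many genes, these values describe the arrays and carry no test.

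The wider network was followed through 6 lists of partners and targets, with 151 distinct genes of which 143 were tested. Without pairing 1 of them passed the threshold, and with the block 16 did, 15 higher and 1 lower. That is 11.2% of the genes tested, against 7.87% of all genes. All 16 kept their direction in each alternative that measured them, but they were chosen by the blocked fit on these same arrays. All pairs of each gene had the same sign, so leaving out a pair could not reverse it. None of the 16 passed with the block when pair 1 or pair 3 was left out, 1 passed without pair 2 and 7 without pair 4.

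Among 34 tested coactivator partners and upstream regulators, 2 rose and 1 fell with the block, and the median difference was 0.04. Of all genes, 4.23% rose and 3.64% fell with the block. Prkaa2, the muscle catalytic subunit of AMPK, rose by 0.46 (standard error 0.06, adjusted p from limma 0.0206 with the block and 0.585 without). Each macroH2A1.1 siRNA array was above the control array of its number, by 0.37 to 0.54, although the groups overlapped widely, at -0.50 to 0.62 in control and 0.04 to 1.11 in macroH2A1.1 siRNA myotubes. Nrip1, a corepressor that opposes PGC-1 action, rose by 0.29 (adjusted p 0.0462 with the block). Lpin1, a phosphatidate phosphatase that also acts as a partner of PGC-1 alpha, fell by 0.47 (adjusted p 0.0181 with the block). The 3 brightest that did not pass were Prmt1 at -0.06, Camk2g at 0.14 and Mybbp1a at 0.07. Crtc3, a CREB coactivator chosen after its values were seen, had the lowest difference of all list genes, -1.97 (adjusted p from limma 0.70, and 0.40 with the block). This came from macroH2A1.1 siRNA replicate 2, which read -6.04 where the other macroH2A1.1 siRNA arrays read 1.35 to 1.38 and control arrays 1.39 to 1.56.

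Among 17 receptor and DNA-binding partners the median was 0.02, and with the block, where 7.87% of all genes passed, 1 did. This was Pparg, the receptor that directs fat cell formation, which rose by 0.40 (standard error 0.06, adjusted p 0.0261 with the block and 0.452 without), with pairs between 0.33 and 0.49. The groups overlapped, at 1.24 to 1.91 in control and 1.61 to 2.24 in macroH2A1.1 siRNA myotubes. The partners Rxrb (-0.01), Nr1h2 (-0.05) and Nfe2l2 (-0.10) did not pass.

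None of the 20 genes of mitochondrial DNA maintenance and transcription, which act beside Tfam, passed in either fit, and their median was -0.05. Of all genes, 0.0219% passed without pairing and 7.87% with the block. The protease Lonp1, which degrades free Tfam, differed by -0.06 and the terminator-family gene Mterf4 by 0.09. Ssbp1, the single-stranded DNA binding protein of mitochondria, differed by 0.19 on its brightest probe (adjusted p from limma 0.348, and 0.113 with the block), and only 1 of its 3 other probes had that sign.

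Among 28 tested targets of estrogen-related receptors and PGC-1, 24 had a difference above 0, against 51.7% of all genes, and the median was 0.19. With the block 4 rose, against 4.23% of all genes. Ckmt2, the sarcomeric mitochondrial creatine kinase, rose by 4.20 (standard error 0.73, adjusted p from limma 0.0365 with the block and 0.145 without), or 18.4-fold. Its levels were 0.47, -3.63, -1.71 and -2.10 on control arrays 1 to 4 and 3.03, 3.08, 3.08 and 0.66 on macroH2A1.1 siRNA arrays 1 to 4. The groups did not overlap, but control replicate 1 and macroH2A1.1 siRNA replicate 4 lay close together, and the pairs ranged from 2.55 to 6.71. Fabp3, the muscle fatty acid binding protein, rose by 1.62 (adjusted p 0.0189 with the block). The complex III core protein Uqcrc1 rose by 0.34 (adjusted p 0.0316) and cytochrome c, Cycs, by 0.32 (adjusted p 0.0369), both with the block. Atp5b (0.19), Mdh2 (0.29) and Slc25a4 (0.15), the brightest that did not pass, had adjusted p of 0.0987, 0.052 and 0.16 with the block.

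Among 27 tested PPAR targets, 23 had a difference above 0, against 51.7% of all genes, and the median was 0.18. With the block 6 rose, against 4.23% of all genes. Plin4, a coat protein of lipid droplets, also rose without pairing, by 1.32 (standard error 0.14, adjusted p from limma 0.0391, and 0.0139 with the block). Control arrays were at -0.69, -0.18, -0.51 and -0.17 and macroH2A1.1 siRNA arrays at 0.92, 1.09, 0.92 and 0.80, well apart. This call was lost when any single array was left out. The others were Fabp3, the long-chain acyl-CoA dehydrogenase Acadl at 0.53 (adjusted p 0.0159 with the block), the droplet coat protein Plin2 at 0.45 (adjusted p 0.0371), the malonyl-CoA decarboxylase Mlycd at 0.37 (adjusted p 0.0367) and Fabp4. Fabp4, a fatty acid binding protein of fat cells, rose by 1.42 (adjusted p 0.0298 with the block), but was above background on only 2 of 4 control arrays. Angptl4, a secreted lipase inhibitor, differed by 0.63 (adjusted p 0.0963 with the block), Acadvl by 0.15 and Decr1 by 0.05. The other kept Decr1 probe differed by 0.37.

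Among 29 tested targets of NRF-1 and GABP, 23 had a difference above 0, against 51.7% of all genes, and the median was 0.14. With the block 4 rose, against 4.23% of all genes. Alas1, the first enzyme of heme synthesis, rose by 0.41 (standard error 0.07, adjusted p from limma 0.0373 with the block and 0.144 without). Its levels were 4.26, 4.30, 4.24 and 4.31 in control and 4.75, 4.79, 4.72 and 4.51 in macroH2A1.1 siRNA myotubes, with macroH2A1.1 siRNA replicate 4 the closest to control. The other kept Alas1 probe differed by 0.19. Cycs rose as given above, the complex I subunit Ndufb8 by 0.30 (adjusted p 0.0371) and the ATP synthase subunit Atp5pb by 0.30 (adjusted p 0.0491), each with the block. The cytochrome oxidase subunits Cox4i1 (0.09) and Cox5a (0.18, fitted without macroH2A1.1 siRNA replicate 2, whose spot was an outlier) did not pass, nor did Atp5g1 (0.28), whose other probe was at -0.06.

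**Figure D4:**
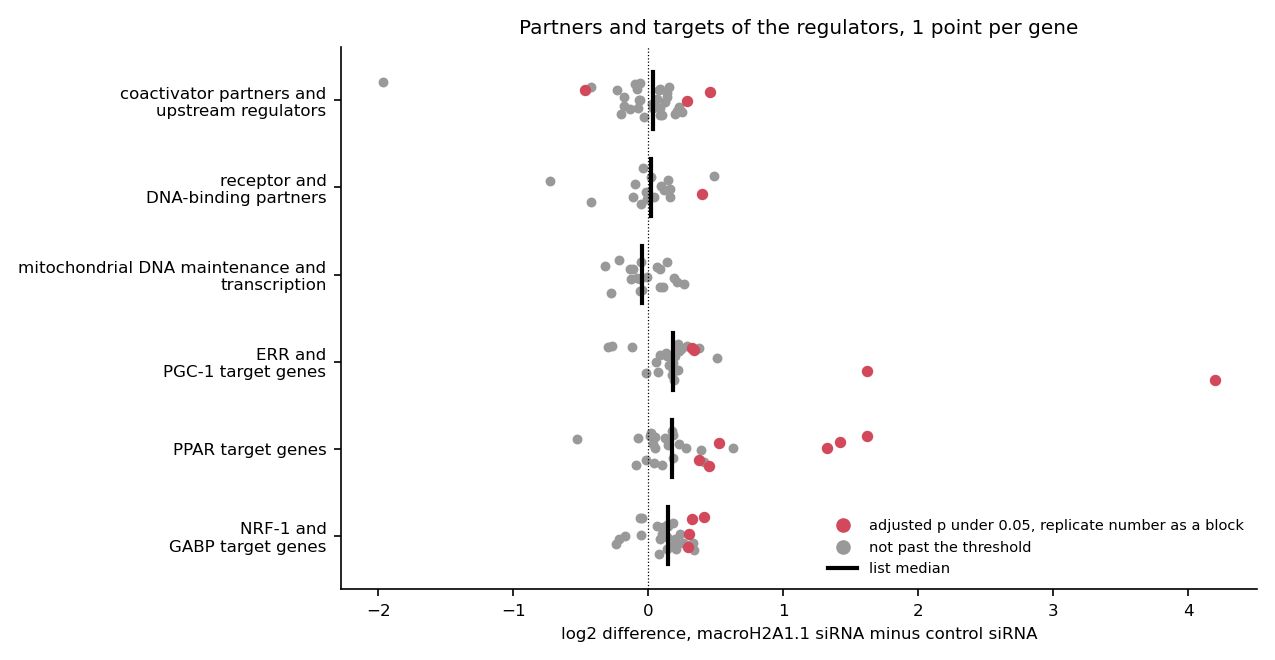
Log2 difference, macroH2A1.1 siRNA minus control siRNA (horizontal axis), of each tested gene in the 6 lists of partners and targets, with 1 point per gene, black bars at list medians and red points for adjusted p under 0.05 in limma with the replicate number as a block. List medians lie at 0.19, 0.18 and 0.14 for the 3 target lists and at 0.04, 0.02 and -0.05 for the partner and maintenance lists.

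Some markers of the culture moved beside these target genes and others did not. The 10 tested cell cycle markers and the 5 tested macrophage markers each had a median difference of -0.03, and none of them passed in either fit. The macrophage marker Cd68 differed by 1.32 (adjusted p from limma 0.401, and 0.095 with the block). The other tested macrophage markers lay between -0.14 and 0.03. The 12 myotube markers had a median difference of 0.37, and 7 rose with the block (4.23% of all genes did), among them Mylpf by 0.52 and Des by 0.59. The log2 of their summed level was 10.9 to 11.4 in control and 11.2 to 11.8 in macroH2A1.1 siRNA myotubes. Of 9 tested fibroblast markers 3 fell with the block (3.64% of all genes did), Bgn by 0.94, Postn by 0.997 and Col1a2 by 0.40. The summed levels of the 9 were 10.702 to 11.093 in control and 10.536 to 11.014 in macroH2A1.1 siRNA myotubes. No adipocyte marker other than Fabp4 rose, Lipe differed by 0.08, and Adipoq, Lep, Plin1 and Cfd were above background on no array, while Plin4 and Pparg rose. The 20 tested interferon response genes had the largest shift of these lists, a median difference of 2.11. All 20 were above 0 (51.7% of all genes were), and 8 had no overlap between groups (8% of all genes). With the block 4 rose past the threshold (4.23% of all genes did), and without pairing none did. The log2 of their summed level was 4.53 to 4.65 in control and 4.77 to 7.40 in macroH2A1.1 siRNA myotubes. The part of the myotube, fibroblast and interferon genes in the differences of the regulators and their targets was not tested. In RNA from whole cultures, a change in the share of fused cells and a change in RNA per cell cannot be told apart.

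**Figure D5:**
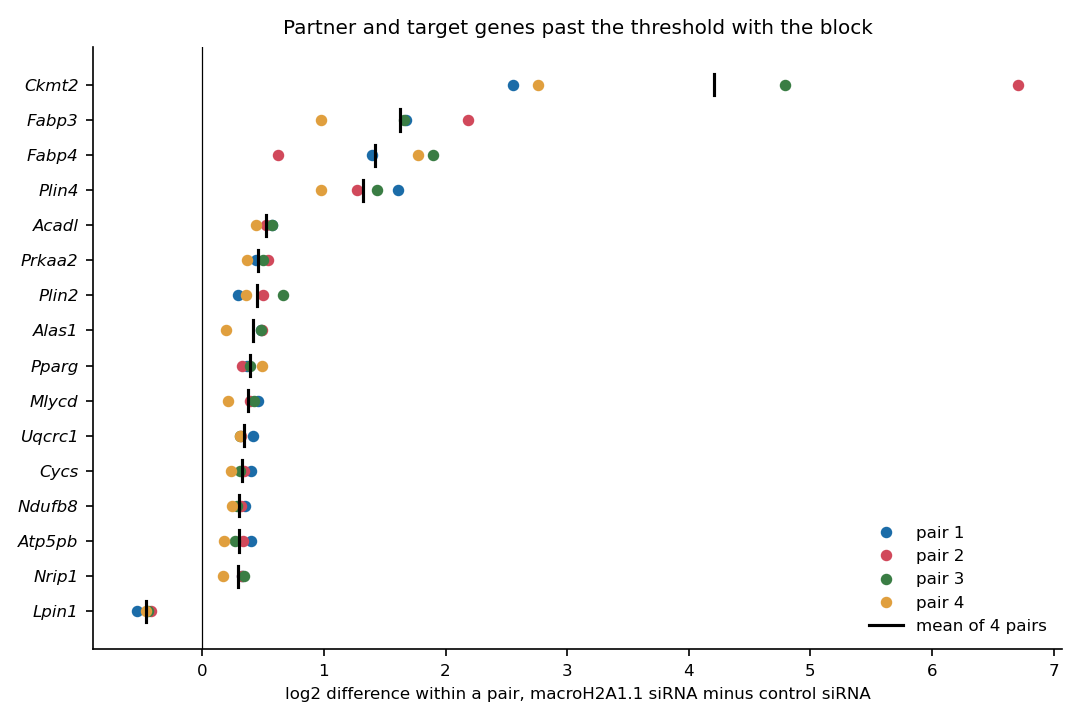
Log2 difference within each of the 4 pairs, macroH2A1.1 siRNA minus control siRNA (horizontal axis), of the 16 partner and target genes past the threshold with the replicate number as a block, with black bars at the mean of the 4 pairs. Every pair of the 15 higher genes lies above 0 and every pair of Lpin1 below it, and the pairs of Ckmt2 spread from 2.55 to 6.71.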

How the data were processed

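Total RNA of 8 samples was labelled with Cy3, 500 ng each, per the labels' protocols. Per the file headers, the authors obtained spot intensity values from Agilent Feature Extraction 10.7.3.1, with probe coordinates on mm9. The processed intensity, already background-subtracted, was the starting point. The authors' series values, deposited without a stated scale, are log2 values: each column followed the log2 mean signal of its own array (r 0.9976 to 0.9995). All columns had a median of 6.29, and the background handling behind them stays unknown, so they served as an alternative.

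Control spots were left out, outlier spots (143 to 236 per array) were set missing, spots of a probe were averaged, and log2 values were centred on the 75th percentile. Of 55681 probes, 27509 were named by accession, 3549 by current symbol and 404 by older symbol in the RefSeq table (GRCm38.p6), 1541 kept the file's name and 22678 stayed unnamed. A probe was retained where every array of a group read it well above background (24978), and the retained probe of highest mean stood for its gene (13701 genes). The contrast was fitted with lmFit and eBayes of limma (version 3.58.1, R 4.3.3), checked on simulated data, with two-sided p-values adjusted by Benjamini-Hochberg over all genes or probes and a threshold of 0.05. Python 3.11.15, pandas 2.3.3 and matplotlib 3.10.9 were used.

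Deviations from the group mean correlated at 0.61, 0.55, 0.66 and 0.41 between samples of the same replicate number and at most -0.03 otherwise, so the numbers pair the samples by the rule that every pair exceeds 0.1. Same-numbered arrays are also neighbours on the slide, so pairing by culture and by position cannot be told apart. The arrays lie on 1 slide, each of its 4 columns holding 1 group, so column and group cannot be told apart. How the cultures were made is not given, and the spread behind each p-value is that between these samples, which may be technical.

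Genes named are all members, up to 6 list genes per direction past the threshold and 3 of highest mean that did not pass, and the 3 genes most like each member (the closest alone for 7 members). The members, lists and tests were chosen with earlier results of these data known. Alternatives were normexp (offset 50), quantile or median scaling, the series values, other filters and probe rules, array row or replicate number as a block, robust eBayes, and leaving out arrays or pairs. No genome or protein table was used here.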

Additional observations from a re-analysis of the deposited data

Results flagged for a closer look

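Among 32 groups of 4 arrays (16 probes in 2 groups), 2 held an array far from the others by Dixon's criterion, about what chance gives at 1 in 20 groups. Control replicate 2 was low for the Gabpa probe at base 1653, at -0.054 against 0.35 to 0.37 on the other control arrays, a gap of 0.939 of the range. The macroH2A1.1 siRNA array of that number, at 0.11, was also the lowest of its group. Control replicate 2 was high for Ppard, at 2.74 against 2.19 to 2.28 on the other control arrays, a gap of 0.833 of the range, and macroH2A1.1 siRNA replicate 2 was the highest of its group, at 2.67.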

How the results depend on the processing

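Without pairing 3 genes passed in limma. The count was 1 with median centring, 1 with each probe on its own, 9 with the array row as a block, and 0 to 8 when an array was left out. With the replicate block it was 1078, and with the block it was 0 without a filter, 1368 with probes above background on all 8 arrays, 1876 with normexp, 1059 with quantile normalization, 1599 with the series values, 973 with the mean of probes and 760 with each probe. Without pairs 1, 2, 3 or 4 it was 0, 35, 0 and 642. Members past the threshold numbered 0 without pairing and 1 with the block, also with the stricter filter or quantile normalization. In the other settings they numbered 0. List genes past the threshold numbered 1 without pairing, and 0 with median centring, with no filter, with each probe and when any array was left out. They numbered 16 with the block, and with the block 0 without a filter, 21 with the stricter filter, 29 with normexp, 16 with quantile normalization, 30 with the series values, 19 with the mean of probes and 9 with each probe. Without pairs 1, 2, 3 or 4 they numbered 0, 1, 0 and 7.

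Ppargc1a, Ppargc1b, Pprc1, Esrra, Nrf1, Tfam and Ppard kept their sign in all 30 alternatives run. When an array was left out Pprc1 ranged from 0.076 to 0.23, Nrf1 from -0.087 to -0.00099, Tfam from 0.071 to 0.21, Ppard from 0.043 to 0.24, Esrrg from -0.035 to 0.37 and Ppara from -0.015 to 0.046. Esrrg reversed to -0.079 with the block without pair 1, and Ppara to -0.0044 with median centring and to -0.048 with the block without pair 4. Gabpa reversed to 0.049 with the mean of probes, in both fits. The cause was not tested.

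With the replicate block the 3 Nrf1 probe differences stayed at 0.66, 0.35 and -0.32, with an exact p of 0.125 each. Base 1818 against base 3163 missed 0.05 with normexp (0.26), quantile normalization (0.35) and the series values (0.18), and also without any 1 of the 4 control arrays (exact p 0.0571 each). It ranged from 0.26 to 0.43 when an array was left out. Base 1101 against base 3163 missed it with normexp (-0.064) and the series values (-0.13). For Tfam, base 980 against base 3217 was -0.0038 with normexp and ranged from -0.041 to 0.13 when an array was left out, base 3217 against base 823 was -0.0025 with the series values, and base 980 against base 823 ranged from 0.087 to 0.16, passing at its highest. The dim probes of Nrf1 and Esrrg limit what can be read from them.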
